A study of Mus musculus with 6 samples.

Results

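The mouse genes for the proteins of the cytosolic ribosome were followed in macrophage-like cells given lipopolysaccharide (LPS), with and without co-cultured BMSCs (usually short for bone marrow stromal cells). Members were the rows of the deposited gene table whose symbol starts with Rpl or Rps followed by a number and, in some, by a, x, l, l1 or al, together with Rpsa, Rplp0, Rplp1 and Rplp2. The rule found 83 of 21958 gene rows. They were 30 genes of the small (40S) subunit, 46 genes of the large (60S) subunit and 7 paralogs, meaning sequence relatives whose names end in l, l1 or al. The rule used names only and no measured value. It leaves out Rps3a1, Fau and Rack1, which also give proteins of the ribosome.

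The cells were RAW264.7, a single mouse macrophage-like line. Both groups received LPS, an outer-membrane component of Gram-negative bacteria, so the controls carry the LPS stimulus too and no library without LPS was analysed. Each group had 3 libraries, called biological replicates in their titles; the first had LPS alone, and in the second BMSCs were co-cultured with the LPS-treated cells. The labels give neither dose nor time, nor the species of the BMSCs or whether the cells touched, and the design text also speaks of a growth factor, bFGF, and a printed scaffold that no sample label names. The title of LPS replicate 3 reads RAW264.9, whereas its cell line tag reads RAW264.7.

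Ribosomal proteins wrap and stabilise the ribosomal RNAs and most are needed in equal numbers, so cells make their mRNAs together and in bulk. Most of these mRNAs begin with a terminal oligopyrimidine (TOP) tract, a C at the cap followed by an unbroken run of C and T, through which the kinase mTORC1 and the binding protein LARP1 set their translation and stability. Activated macrophages make large amounts of cytokines and other secreted proteins, all of it on ribosomes.

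Depth ranged from 17716460 to 22539884 counts per library. Levels below are CPM, read counts scaled by library size, with TMM scaling, which aligns libraries on the bulk of their genes, and tests are edgeR's quasi-likelihood tests with Benjamini-Hochberg adjustment over 11103 tested genes. All 12 macrophage markers were detected, at a summed level of 17360 to 17800 CPM with LPS alone and 26790 to 29800 CPM in co-culture. The 15 stromal markers summed to 20.05 to 20.5 CPM with LPS alone and 27.56 to 30.03 CPM in co-culture, and Col1a2, Col3a1, Thy1, Postn and Cxcl12 were at 0 counts in all 6 libraries. Of the 12 macrophage markers 6 were higher and 2 lower in co-culture, where 37.5% of all tested genes were higher and 38.0% lower. Of 4 stromal markers tested Acta2 was 1.80-fold higher and Lum 2.65-fold lower. The 7 markers of other blood cells summed to at most 0.647 CPM in any library. In bulk RNA, fewer cells of a type and less RNA per cell cannot be told apart.

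The starts of these genes are shown first, because the tract at the start is the feature that the members are known to share. Promoter sequences came from RefSeq (GRCm38.p6), in which 22 of the 30 40S genes, 34 of the 46 60S genes and all 7 paralogs had an entry. Each line below runs from 5 bases before the annotated start to the base 25 from it, 30 bases in all, on the strand given. Capitals mark the longest run of C and T within 25 bases of the start that begins with C and has at least 8 bases, as far as it falls inside the printed window. Rps10, Rps18, Rps25, Rps15, Rpl7a, Rpl38 and Rpl19 are shown because they were among the 3 smallest or 3 largest changes of their subunit and had an entry. Rps6, Rps27, Rplp2 and Rpl13a were picked as examples with a run at the start, and Rpl22l1 and Rpl7l1 as paralogs with and without one, so the lines do not show how common the run is.
Rps10 (chr17:27635220-27635249, minus strand): cgCCCCTTCCTTTCCagcctccgcctcgga
Rps18 (chr17:33955641-33955670, minus strand): ccgCTCTCTCTTCCacaggaggcctacacg
Rps25 (chr9:44407709-44407738, plus strand): atcttagcgaggctgctgtggtctacacga
Rps15 (chr10:80292426-80292455, plus strand): ctcgcgataactgcgcaagcgcagcccgta
Rpl7a (chr2:26910802-26910831, plus strand): CTTTCTTTCTCCagcagccgagcaagatgg
Rpl38 (chr11:114668575-114668604, plus strand): tcgttCTTTCCCCgttctcttcggttctca
Rpl19, start 1 (chr11:98026705-98026734, plus strand): ccctcactgcgcatgtgcgccgcggagtcg
Rpl19, start 2 (chr11:98026919-98026948, plus strand): CCTTCgcagataatgggcggagcctgcggc
Rps6 (chr4:86857343-86857372, minus strand): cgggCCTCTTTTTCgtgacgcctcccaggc
Rps27 (chr3:90213624-90213653, minus strand): tcgCTCCTTTCCggcggtgacgacctccct
Rplp2 (chr7:141447646-141447675, plus strand): tCTTCCTTTCgccgccggacgccgccgagg
Rpl13a (chr7:45128721-45128750, minus strand): gacaagaCCTCCTCCTTTCCCaggcggctg
Rpl22l1 (chr3:28805503-28805532, plus strand): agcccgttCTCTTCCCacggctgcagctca
Rpl7l1 (chr17:46782632-46782661, minus strand): gcaagcgcagtagctgaagcaccggaaaga

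Rps10 and Rps18, which changed least among 40S genes without the offsets described below, carried runs of 13 and 11 bases at the start. The run of Rps25 has 14 bases and lies before the printed window, and those of Rpl7a (19 bases) and of the second start of Rpl19 (11 bases) begin before it. No such run was found for Rps15, the 40S gene that changed most without those offsets. Its absence says only that these letters are not in this window. Within 25 bases of the start on either side, such a run was present in 10 of 22 40S genes (45.5%), 20 of 34 60S genes (58.8%) and 3 of 7 paralogs. The share was 17.7% of all 27025 promoters and the run was present in 1694 of the 8916 promoters of tested genes. Over the 300 bases from 250 before to 50 after the start, with both strands searched, the letters CGGAAG stood in 77.3% of 40S and 64.7% of 60S promoters, beside 18.8% of all promoters and 37.2% of tested ones. The letters ATGGCG stood in 27.3% and 29.4%, beside 10.2% and 18.7%. These strings can overlap each other by the letters CG, and CGGAAG read on the other strand can overlap a tract. The median log2 fold change was 1.05 for the 30 subunit genes with a tract, 1.06 for the 26 with an entry and no tract, and 1.15 for the 20 with no entry.

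Transcripts of the 40S subunit were higher in co-culture than with LPS alone, as a whole subunit. All 30 genes passed the test as higher, where 37.5% of all tested genes were higher and 38.0% lower. The log2 fold changes ran from 0.48 to 1.36 around a median of 1.12, a 2.17-fold difference, beside a median of 0.00 over all tested genes. A rise of at least 2-fold was found for 22 of the 30, against 8.31% of all tested genes. In every one of the 30, each co-culture library lay above each LPS library, which was so for 39.8% of tested genes.

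Without the offsets for length and GC content described below, the largest 40S changes were in Rps15, Rps29 and Rps20. Rps15, a protein needed for export of the small subunit precursor from the nucleus, had 445, 489 and 468 CPM with LPS alone and 1479, 1142 and 987 CPM in co-culture. Its groups lay far apart, and its log2 fold change was 1.36 ± 0.13 (SE, n = 3 per group; edgeR adjusted p = 7.01e-06). Rps29, a small zinc-binding protein, stood at 90.3, 111 and 102 CPM with LPS alone and at 320.3, 245 and 214 CPM in co-culture, a log2 fold change of 1.36 ± 0.14 (SE). Rps20 stood at 293, 304 and 283 CPM with LPS alone and at 901, 676 and 646 CPM in co-culture (log2 fold change 1.34 ± 0.11, SE). In all 3 genes co-culture replicate 1 was the highest library. With the 2 offsets for length and GC content, on table and on principal lengths, Rps15 was at -0.068 and 0.14. Rps29 was at 0.22 and 0.15, and Rps20 at 1.68 and 1.94. Rps15 lost its call on table lengths and Rps29 on principal lengths.

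Without these offsets, the smallest 40S changes were in Rps10, Rps18 and Rps25. Rps10, a protein tagged with ubiquitin when ribosomes collide, was counted at only 4.62, 4.66 and 4.59 CPM with LPS alone and at 7.12, 6.45 and 5.70 CPM in co-culture. Its log2 fold change was 0.48 ± 0.12 (SE; edgeR adjusted p = 0.00557). Rps18 was counted at 35.1, 34.5 and 36.7 CPM with LPS alone and 57.7, 55.3 and 52.8 CPM in co-culture (0.64 ± 0.07, SE). Rps25, a protein that several viral internal ribosome entry sites depend on, had 402, 411 and 394 CPM with LPS alone and 816, 737 and 717 CPM in co-culture (0.91 ± 0.06, SE). The groups did not overlap in any of them. With the offsets on table and then principal lengths, Rps10 was at -0.11 and -0.49, Rps18 at 0.275 and -0.42, and Rps25 at 0.60 and 0.42.

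Between these ends lay the 40S genes with well-known roles of their own. Rps6, the substrate of the S6 kinases downstream of mTORC1, had 784, 804 and 793 CPM with LPS alone and 1870, 1552 and 1483 CPM in co-culture, a 2.06-fold difference. Rpsa, which also gives the laminin receptor precursor, had 1104, 1128 and 1097 CPM and then 2900, 2357 and 2150 CPM, a 2.22-fold difference. Rps19, the gene most often mutated in human Diamond-Blackfan anaemia, had 335, 324 and 312 CPM and then 818, 725 and 632 CPM, 2.24-fold higher. These 3 genes sit close to the median of the subunit. Rps27a, made as a fusion with ubiquitin, had 588, 576 and 561 CPM and then 1374, 1179 and 1108 CPM, 2.12-fold higher. Rps3, which lines the mRNA entry channel, had 807, 798 and 755 CPM and then 1631, 1429 and 1389 CPM, 1.89-fold higher. Rps26, which touches the mRNA at the exit channel, had 471, 516 and 513 CPM and then 1151, 945 and 883 CPM, 1.99-fold higher. Rps4x, the X-linked 40S gene, had 883, 855 and 843 CPM and then 1963, 1630 and 1631 CPM, 2.03-fold higher, and with Rps15 it had the highest mean FPKM in the subunit. Each of these genes had an edgeR adjusted p of at most 8.02e-06.

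Transcripts of the 60S subunit were higher in co-culture as well. All 46 genes passed the test as higher, beside the same 37.5% of tested genes, with log2 fold changes of 0.48 to 1.51 around a median of 1.10, a 2.14-fold difference. At least 2-fold rises were seen in 30 of the 46, against 8.31% of all tested genes. In all 46 the co-culture libraries lay above the LPS libraries, which was so for 39.8% of tested genes. The largest edgeR adjusted p was 0.0179, in Rpl24, which had under 2 CPM in every library. The medians of the subunits differed by less than the spread among the genes of either.

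Without the 2 offsets for length and GC content, Rpl38, Rpl36 and Rpl19 had the largest 60S changes. Rpl38, whose loss in mice alters the skeleton through poor translation of Hox mRNAs, stood at 73.7, 88.5 and 81.4 CPM with LPS alone and at 294, 208 and 189.7 CPM in co-culture. That is a log2 fold change of 1.51 ± 0.15 (SE, n = 3 per group; edgeR adjusted p = 1.06e-05). Rpl36 stood at 154, 161 and 142 CPM and then at 521, 392 and 319 CPM (1.43 ± 0.15, SE). Rpl19, which forms part of a bridge to the small subunit, stood at 87.4, 91.8 and 87.2 CPM and then at 291, 221 and 202 CPM (1.42 ± 0.12, SE). In each of them co-culture replicate 1 was the highest library and replicate 3 the lowest of its group. With the offsets on table and then principal lengths, Rpl38 was at -0.004 and 0.23, Rpl36 at -0.36 and 0.02, and Rpl19 at 0.43 and 0.49. Rpl36 was thus called lower on table lengths, where Rpl38 lost its call.

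Rpl23a, Rpl7 and Rpl7a had the smallest 60S changes. Rpl23a, which sits at the exit of the peptide tunnel, was counted at 4.19, 4.85 and 5.26 CPM with LPS alone and 5.98, 7.27 and 6.82 CPM in co-culture, a log2 fold change of 0.48 ± 0.13 (SE; edgeR adjusted p = 0.00797). Rpl7 was abundant, at 811, 867 and 829.8 CPM and then 1344, 1275 and 1235 CPM (0.62 ± 0.06, SE). Rpl7a had 527, 558 and 543 CPM and then 909, 869 and 787 CPM (0.66 ± 0.06, SE). Without an offset, Rpl7 and Rpl7a thus lay below most of their subunit at high counts and small errors. With the 2 offsets for length and GC content described below, on table and on principal lengths, Rpl7 was at 0.61 and 0.35. These values are near the 60S medians of 0.60 and 0.34, whereas Rpl7a was at 0.11 and -0.08.

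The stalk of the large subunit, which recruits the translational GTPases, is built on Rplp0 with copies of Rplp1 and Rplp2. Rplp0 had 685, 718 and 676 CPM with LPS alone and 1661, 1320 and 1190 CPM in co-culture, 2.01-fold higher. Rplp1 had 409.8, 408 and 379.7 CPM and then 1131, 953 and 829.5 CPM, 2.43-fold higher. Rplp2 had 245.1, 265.2 and 243.4 CPM and then 782, 601 and 506 CPM, 2.51-fold higher. With the offsets on table and then principal lengths, Rplp0 had log2 fold changes of 0.36 and 0.45 and Rplp2 of 0.755 and 0.513. Rplp1 was at -0.25, called lower, and at 0.07, not called. No test compared the stalk genes with each other. Rpl5 and Rpl11, which bind 5S ribosomal RNA and, when free, the p53 ligase Mdm2, were 1.84-fold and 2.21-fold higher. Rpl5 had 663, 659.5 and 643 CPM and then 1307, 1164 and 1150 CPM, and Rpl11 had 403, 415 and 403 CPM and then 1042, 851 and 802 CPM.

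Rpl23, another binder of Mdm2, had 456, 489.8 and 477 CPM with LPS alone and 1012, 837 and 813 CPM in co-culture, 1.87-fold higher. Rpl22, which is dispensable for most translation and has a paralog in Rpl22l1, had 232, 245 and 231 CPM and then 522, 439 and 473 CPM, 2.03-fold higher. Rpl41, the shortest ribosomal protein, had 601, 648 and 606 CPM and then 2026, 1443 and 1229 CPM, 2.53-fold higher, and with Rplp1 it had the highest mean FPKM of the 60S genes. Rpl13a, which in interferon-treated human monocytes leaves the ribosome to silence inflammatory mRNAs, was counted at 10.2, 9.18 and 8.73 CPM and then at 19.7, 15.6 and 12.5 CPM. Its log2 fold change was 0.77 ± 0.16 (SE; edgeR adjusted p = 0.00121), a call that was lost with either offset for length and GC content described below. The groups did not overlap in any of these 4 genes.

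**Figure D1:**
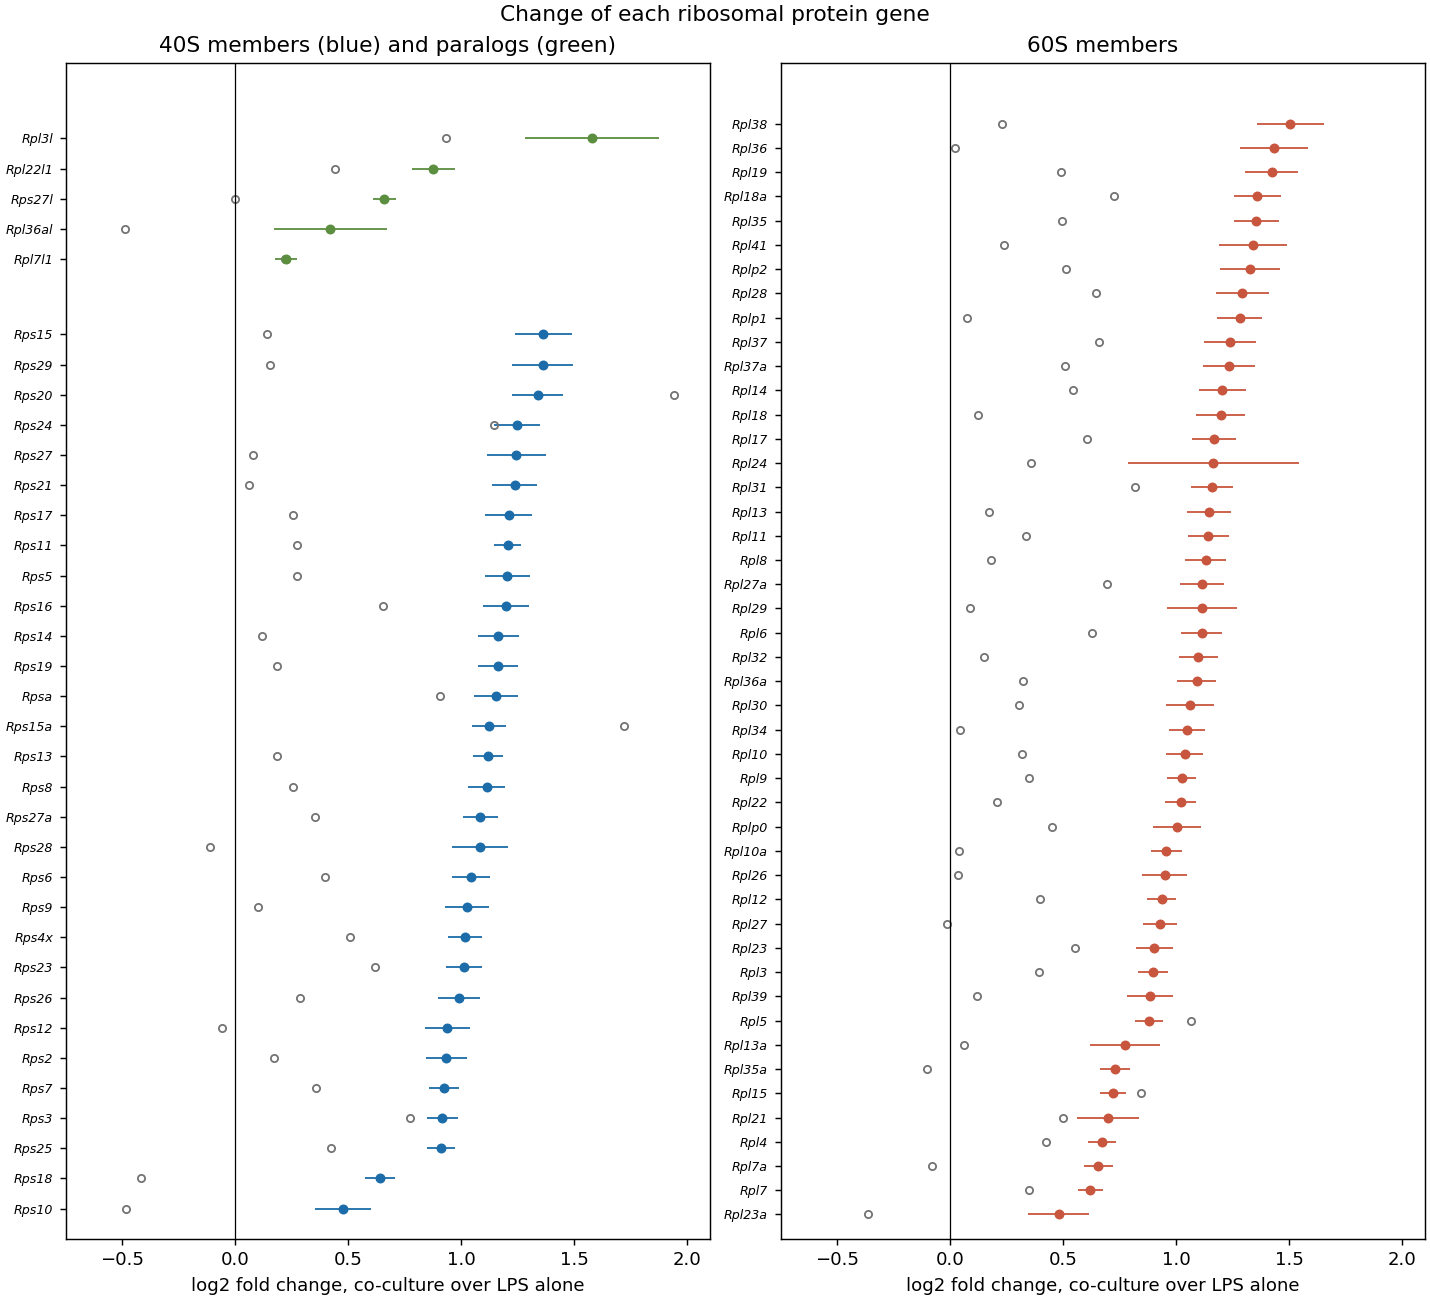
Log2 fold change of each tested member, co-culture over LPS alone, on the x axis, with 40S genes and paralogs in the left panel and 60S genes in the right. Filled points are the TMM-scaled edgeR estimates with bars of 1 SE (n = 3 per group), and open points are the estimates with an offset for principal transcript length and GC content; filled points of subunit genes run from 0.48 to 1.51, and most open points lie left of them, with a median of 0.31 over the 76 subunit genes.

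The paralogs did not share 1 size of change. Of the 7, Rpl10l and Rpl39l, known mainly from the testis, were at 0 counts in all 6 libraries, which allows at most 3 counts, or 0.133 to 0.169 CPM, for counting error only. Of the 5 tested, 4 were higher, beside 37.5% of all tested genes, with a median log2 fold change of 0.66. Rpl3l, a relative of Rpl3 known from striated muscle, was barely detected, at 0.424, 0.666 and 0.459 CPM with LPS alone and 1.89, 1.59 and 1.17 CPM in co-culture. Its log2 fold change was 1.58 ± 0.30 (SE, n = 3 per group; edgeR adjusted p = 7.48e-04). Rpl22l1 had 9.87, 11.4 and 11.8 CPM and then 21.5, 20.2 and 19.2 CPM (0.88 ± 0.10, SE). Rps27l, a p53 target, had 88.3, 88.5 and 84.4 CPM and then 138, 136 and 139 CPM (0.66 ± 0.05, SE), so its 3 co-culture libraries were nearly level.

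Rpl7l1 had the smallest change of any member called, at 163, 159.6 and 164 CPM with LPS alone and 191, 188 and 189.9 CPM in co-culture. Its log2 fold change was 0.23 ± 0.05 (SE; edgeR adjusted p = 0.0017), which with library totals as the only scaling became 0.05 and lost its call. Rpl36al was at 0.637, 0.714 and 0.710 CPM and then 0.996, 0.870 and 0.906 CPM, and its log2 fold change of 0.42 ± 0.25 (SE; edgeR adjusted p = 0.175) did not pass the test, though its groups did not overlap.

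Each paralog was also set beside its partner gene, as a share of the pair's summed level per length of principal transcript. Rps27l made up 27.7 ± 0.95% (SD, n = 3) of the Rps27 pair with LPS alone and 20.8 ± 3.6% in co-culture, where the libraries gave 17.2, 20.7 and 24.4%. Its partner Rps27 had 151, 162 and 158 CPM and then 457, 362 and 297 CPM. Rpl7l1 made up 7.97 ± 0.34% (SD) and then 6.19 ± 0.23% of the Rpl7 pair. Rpl36al made up 0.371 ± 0.015% (SD) and then 0.236 ± 0.018% of the Rpl36a pair, in which Rpl36a had 164, 172 and 171 CPM and then 415, 342 and 326 CPM. That share rests on 12, 15 and 17 counts of Rpl36al with LPS alone and 20, 17 and 17 in co-culture. Another annotated gene, Gm49383, overlaps 63.1% of the exon bases of Rpl36al, so its level is uncertain. Rpl3l made up 0.0964 ± 0.022% (SD) and then 0.154 ± 0.026% of the Rpl3 pair, in which Rpl3, a protein of the peptidyl transferase centre, had 524, 538 and 512 CPM and then 1069, 948 and 917 CPM. In these 4 pairs the groups did not overlap, and the two-sided exact permutation p was 0.1, the smallest that 3 against 3 libraries allow. For Rpl22l1 the share was 3.86 ± 0.34% (SD) and then 3.53 ± 0.24%, with overlapping groups (two-sided exact permutation p = 0.2, n = 3 per group). These shares carry no offset for the length and GC trend described below. With the offset on principal lengths, Rps27l and Rps27 had log2 fold changes of -0.002 and 0.078, and Rpl7l1 and Rpl7 0.221 and 0.347. Rpl36al and Rpl36a were at -0.488 and 0.321, Rpl3l and Rpl3 at 0.934 and 0.395, and Rpl22l1 and Rpl22 at 0.441 and 0.206.

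**Figure D2:**
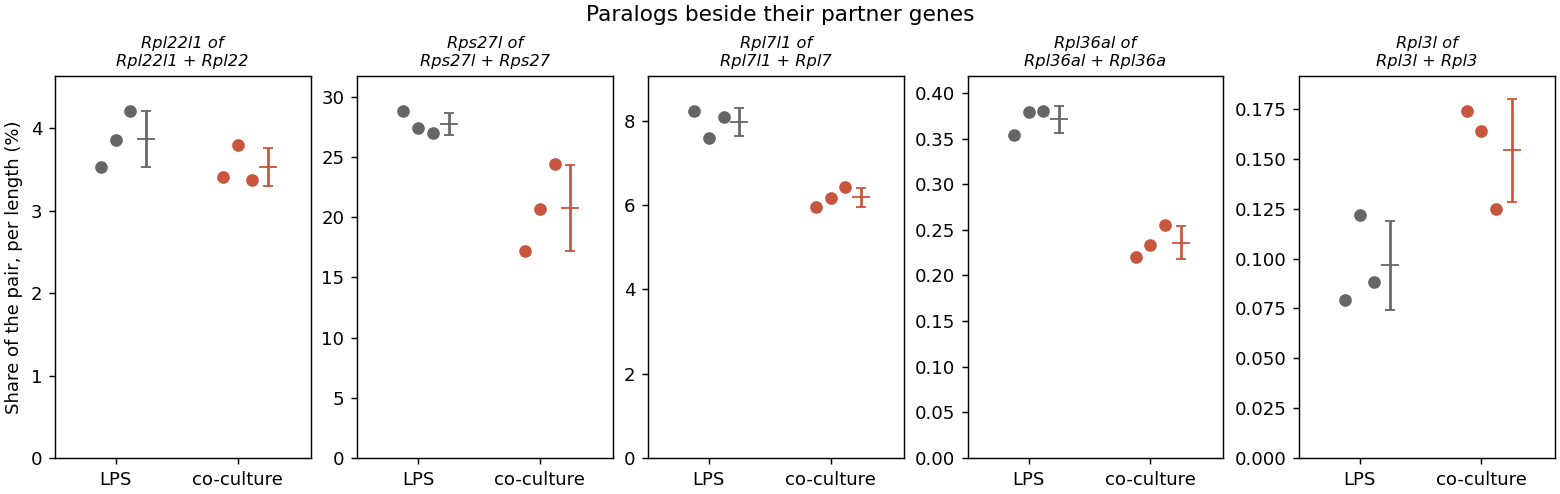
Share of each paralog in the summed level of the paralog and its partner, per length of principal transcript, in percent on the y axis, for LPS alone and co-culture on the x axis. Points are libraries and bars are the mean ± SD of 3; Rps27l, Rpl7l1 and Rpl36al had lower shares in co-culture, Rpl3l a higher share, and the groups overlapped for Rpl22l1.

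The subunit genes together took a larger part of all counts in co-culture. The 76 genes held 2.96, 3.05 and 2.93% of counts with LPS alone and 6.19, 5.37 and 4.99% in co-culture, a ratio of means of 1.85. The LPS libraries lay within a narrow band and the co-culture libraries were spread more widely. The 40S share went from 1.26 ± 0.03% to 2.40 ± 0.27% (SD, n = 3 each) and the 60S share from 1.72 ± 0.04% to 3.11 ± 0.35%. The paralog share went from 0.0278% to 0.0329%.

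Co-culture replicate 1 was the highest library for 73 of the 76 subunit genes, and co-culture replicate 3 the lowest co-culture library for 67. The median deviation of the members from their own group mean was 0.22 in co-culture replicate 1, -0.05 in replicate 2 and -0.16 in replicate 3 on the log2 scale, beside -0.02 to 0.03 in the LPS libraries. Both subunits moved together from library to library. The median log2 CPM of 60S genes stood 0.06 to 0.16 above that of 40S genes in every library. Without co-culture replicate 1, all 30 40S genes and 45 of 46 60S genes stayed higher, beside 38.4% of tested genes higher and 38.2% lower, with medians of 1.03 and 0.97, and Rpl24 lost its call (log2 fold change 0.74; edgeR adjusted p = 0.0894). Without LPS replicate 3, the library whose title names RAW264.9, all 30 and all 46 genes were higher. Over the fits that each leave out 1 library, 3810 to 4300 of all tested genes were called higher. Without LPS replicate 1, Rpl24 also lost its call (1.02; edgeR adjusted p = 0.0622).

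Mitochondrial mRNAs, given here as a sign of RNA quality, had a lower summed level in co-culture. It was 26800 to 27810 CPM with LPS alone and 20930, 22620 and 24990 CPM in co-culture replicates 1, 2 and 3. Of 11 tested, 4 were higher and 2 lower, beside 37.5% and 38.0% of all tested genes. The 2 lower were mt-Co1, at means of 15310 and then 10950 CPM, and mt-Nd5, at 2154 and then 1080 CPM. Among the 4 higher were mt-Nd1, mt-Nd4 and mt-Nd6, so the summed level does not describe each gene. The part of these levels, and of the marker levels above, in the ribosomal result was not tested.

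**Figure D3:**
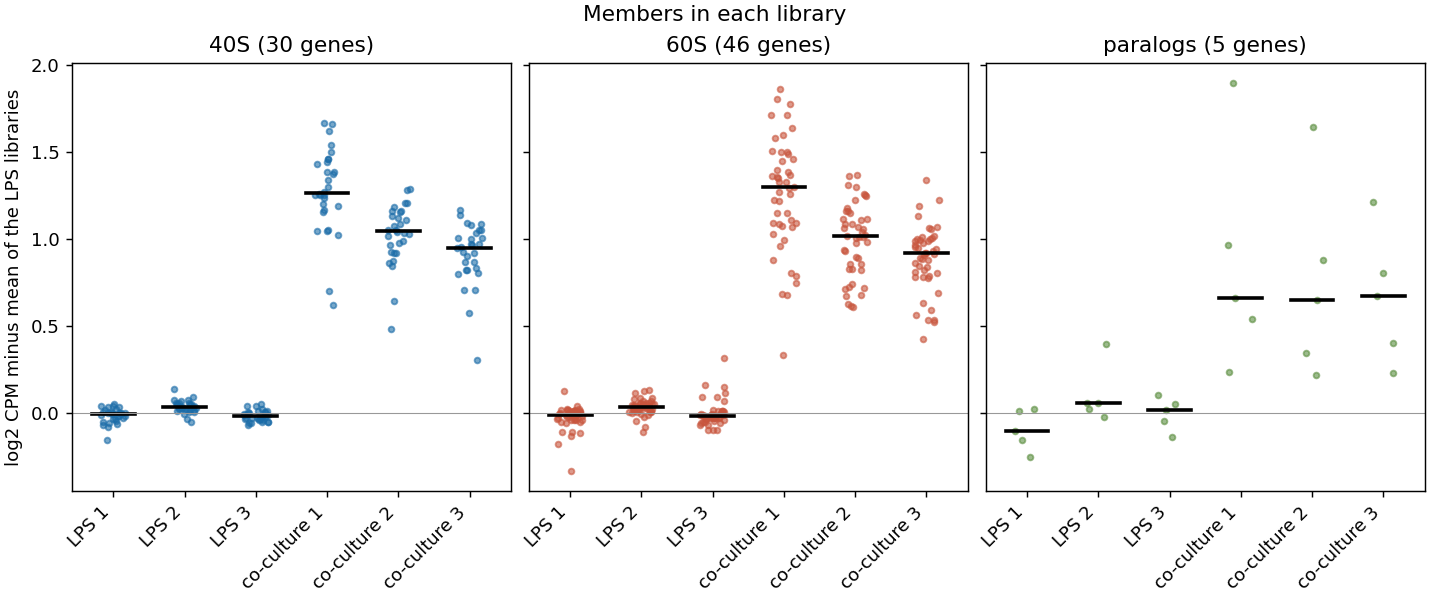
Log2 CPM of each member in each of the 6 libraries, minus its mean over the LPS libraries, on the y axis, for 40S genes, 60S genes and the 5 tested paralogs. Points are genes and black lines their medians; the median of the 40S genes was 1.27, 1.05 and 0.95 in co-culture replicates 1, 2 and 3, that of the 60S genes 1.30, 1.02 and 0.92, and that of the paralogs 0.66, 0.65 and 0.67.

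Although most of the proteins are needed in equal numbers, the deposited counts of their genes were far from equal. Per kilobase of principal transcript, the level with LPS alone ran from 5.21 CPM per kb for Rps10 to 935 CPM per kb for Rps15 among 40S genes, with a median of 437. Among 60S genes it ran from 0.705 CPM per kb for Rpl24 to 1063 CPM per kb for Rpl41, with a median of 396. The SD of the log2 level per kb over the 76 genes was 2.17 to 2.23 in the LPS libraries and 2.27 to 2.28 in co-culture. After Rps15, the next 40S genes were Rps6 at 904 and Rps27a at 903 CPM per kb, which lay within the spread of their libraries.

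The very low genes were looked at after their values were seen. A mean count under 1000 was found for 11 genes, Rps10, Rps18, Rpl13a, Rpl21, Rpl23a, Rpl24, Rpl26, Rpl29, Rpl30, Rpl35 and Rpl35a, and their median log2 fold change was 0.78, beside 1.12 for the other 65. Of the 11, 6 had at least 30% of the exon bases of their principal transcript overlapped by another annotated gene, which was so for 3 of the other 65. In GRCm38 (GENCODE M21), Rpl24 is overlapped over 71.5% of its exon bases by Gm28037, Rpl35 over 68.3% by Wdr38, Rps10 over 63.6% by RPS10-NUDT3, Rpl13a over 59.3% by Gm45713, Rpl23a over 55.4% by Tlcd1 and Rpl30 over 34.7% by D730044K07Rik. The counting rule for reads in such overlaps is not stated in the labels or the table, so the levels of these 6 genes are uncertain. Across the 76 genes, log2 level per kb had a Pearson r of -0.60 with percent exon overlap and -0.10 with the percent of 50-base strings shared with other genes' transcripts, as a description over genes that share libraries.

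Near-identical copies are a second source of uncertainty. The median 40S gene shared 47.4% and the median 60S gene 58.7% of its 50-base strings with transcripts of other genes, and 75 of the 76 shared some with annotated pseudogenes. The row of Rps18-ps5, a copy of Rps18, had 785 to 919 counts with LPS alone and 1669 to 2617 in co-culture, at 40.6 ± 1.9 CPM and 109 ± 21 CPM (SD, n = 3). Its log2 fold change was 1.42 ± 0.12 (SE; edgeR adjusted p = 4.85e-06), larger than the 0.64 of Rps18, and reads of the pair may be divided between the rows.

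**Figure D4:**
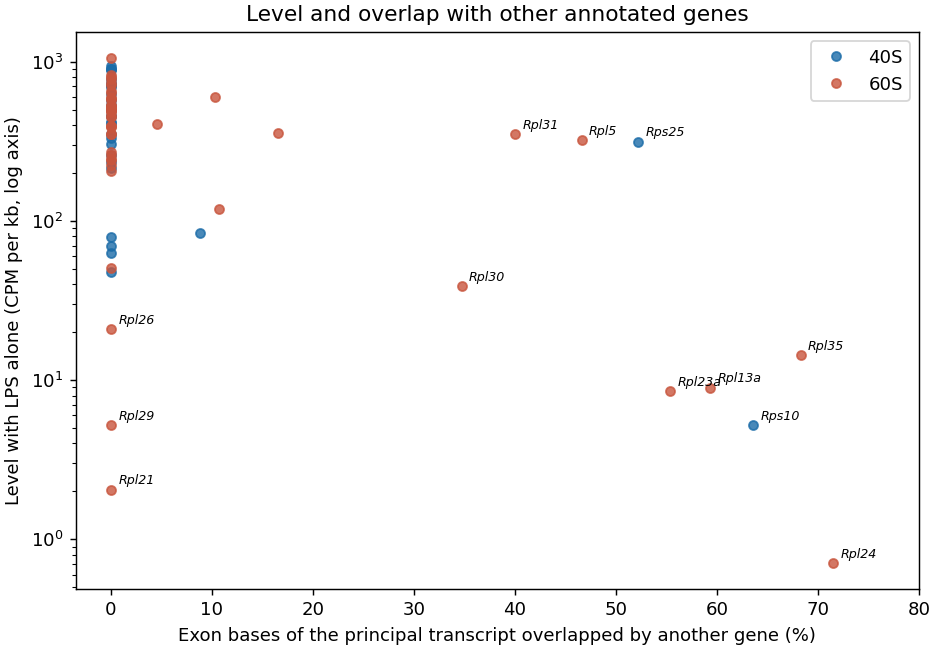
Level of each of the 76 subunit genes with LPS alone, in CPM per kb of principal transcript on a log axis, against the percent of its exon bases that another annotated gene overlaps. Points are genes, and those under 30 CPM per kb or with at least 30% overlap are named; Rpl24, Rpl35, Rps10, Rpl13a and Rpl23a lie at the lower right, whereas Rpl5, Rpl31 and Rps25 are overlapped and high.

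The genes of the ribosome are short, and in these libraries short genes as a class were higher in co-culture. Over 11072 tested genes the log2 fold change had a Pearson r of -0.46 with log2 principal transcript length and 0.38 with GC content, as descriptions over genes. Among the 76 subunit genes these were -0.21 and 0.24. The subunits differed, with -0.05 and -0.27 for 40S genes and -0.35 and 0.51 for 60S genes. Genes other than members with 500 to 750 bases had a median log2 fold change of 0.91, and 83.7% of them were higher, beside a median of 1.07 for the 22 subunit genes of that length. At 750 to 1000 bases the medians were 0.75 for other genes and 1.13 for 19 subunit genes, and at 1000 to 1500 bases they were 0.53 and 1.00 for 15. Below 500 bases they were 0.89 and 1.24 for 11. Subunit genes thus stood above other genes of like length by 0.17 to 0.48 in median in these bins, a difference with no test. The principal transcripts annotated for Rps15a and Rps20 have 5179 and 3706 bases, so these genes fall among long ones.

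With an offset that takes out the length and GC trend of each library, the rises became smaller. On the gene lengths in the deposited table, 66 of the 76 subunit genes were higher and 3 lower, beside 35.5% and 36.0% of tested genes, with medians of 0.55 for 40S and 0.60 for 60S. The 3 lower were Rplp1 at -0.25, Rpl36 at -0.36 and Rpl23a at -0.40. A further 7 lost their calls, Rps15 at -0.07, Rpl38 at 0.00, Rps10 at -0.11, Rpl13a at 0.25, Rpl24 at 0.32, Rpl29 at 0.11 and Rpl26 at 0.16. On principal transcript lengths, an alternative chosen after seeing the data, 55 were higher and 3 lower, beside 33.5% and 35.2% of tested genes, with medians of 0.26 and 0.34. The 3 lower were Rps10 at -0.49, Rps18 at -0.42 and Rpl23a at -0.36. The other 18 lost their calls, among the genes described above Rps29 at 0.15, Rps27 at 0.08, Rpl36 at 0.02, Rplp1 at 0.07, Rpl7a at -0.08, Rpl13a at 0.06 and Rpl24 at 0.36. Rpl23a was thus higher without an offset and lower with either.

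The offsets left rises in most members named above. Rps6 had log2 fold changes of 0.27 and 0.40 under the table and the principal lengths, Rpsa 0.93 and 0.91, Rps3 0.97 and 0.77, Rpl5 1.14 and 1.06, Rplp0 0.36 and 0.45, and Rpl41 0.43 and 0.24, all past the threshold. Rplp1 differed between them, at -0.25 and 0.07, and Rps19 likewise, at 1.18 and 0.19. The table's lengths exceed the principal lengths by a median ratio of 2.19 for 40S genes and 2.01 for 60S genes. Among paralogs, Rps27l was at 0.02 and 0.00 and lost its call, Rpl22l1 was at 0.77 and 0.44, Rpl3l at 0.87 and 0.93 and Rpl7l1 at 0.12 and 0.22, all 3 past the threshold. With library totals as the only scaling, which lowers the median of all tested genes to -0.18, the medians were 0.94 and 0.91, 75 of the 76 subunit genes were higher beside 29.0% of tested genes (46.7% were lower), and Rpl23a lost its call (0.30; edgeR adjusted p = 0.0721).

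**Figure D5:**
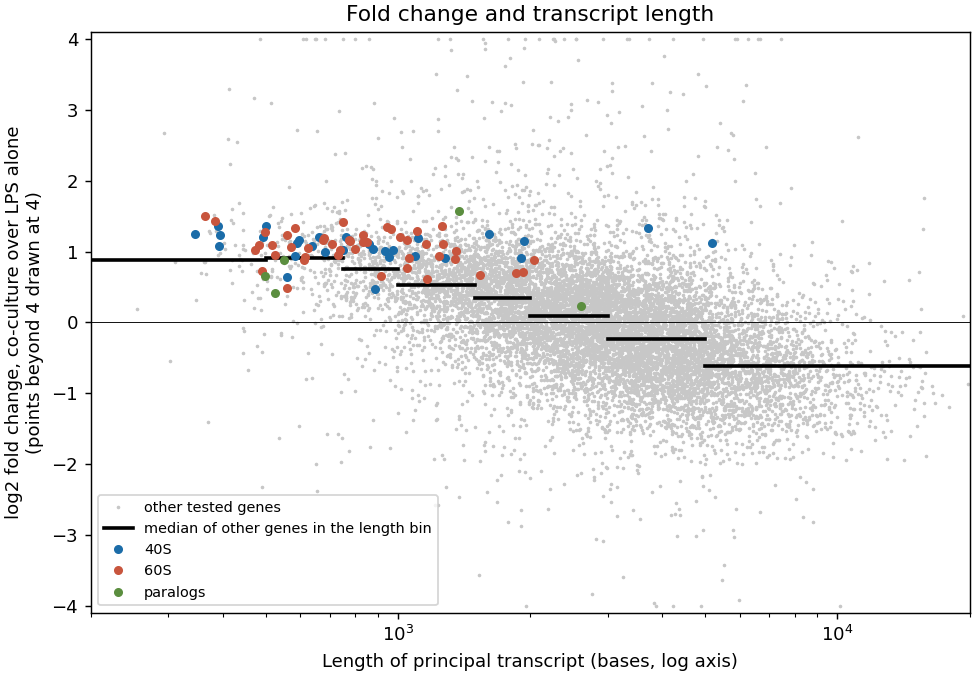
Log2 fold change, co-culture over LPS alone, of each tested gene against the length of its principal transcript in bases on a log axis. Grey points are other genes, black lines their medians by length bin, and coloured points the members; the medians of other genes go from 0.89 below 500 bases to -0.62 at 5000 bases and over, and most 40S and 60S genes lie above the line of their bin.

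The 3 ribosome proteins described outside the naming rule were higher too, beside 37.5% of all tested genes. Fau, whose product carries the 40S protein eS30, had 248, 252 and 239.6 CPM with LPS alone and 836, 668 and 599 CPM in co-culture, a log2 fold change of 1.51 ± 0.11 (SE, n = 3 per group; edgeR adjusted p = 1.94e-06). Rack1, a signalling scaffold on the 40S head, was 1.69-fold higher, as was the 40S gene Rps3a1, at 1062 ± 21 CPM and then 1792 ± 117 CPM (SD). The principal transcript of Fau has 508 bases, and of other genes with 500 to 750 bases 83.7% were higher. With the offsets on table and then principal lengths, Fau was at 0.40 and 0.29 and Rack1 at 0.865 and 0.34, all past the threshold. Offset values of Rps3a1 are not given here.

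Genes that share the TOP start or serve the ribosome were counted in the same fit, beside the 37.5% of all tested genes that were higher and the 38.0% that were lower. Of 15 elongation factors and other TOP mRNAs, 10 were higher and 3 lower, with a median log2 fold change of 0.26. Among them Tpt1, the translationally controlled tumour protein, had 983, 950.4 and 983 CPM with LPS alone and 2128, 1904 and 1956 CPM in co-culture, and Eef1b2, an exchange factor for eEF1A, was 2.07-fold higher. Of 14 genes of RNA polymerase I and its factors, which transcribe ribosomal RNA, 8 were higher and 5 lower (median 0.27), with Polr1d at 0.73 and Polr1h at 1.18. Of 11 snoRNP proteins, which guide ribosomal RNA modification, 10 were higher and 1 lower (median 0.46), with Nop56 at 0.72 and Nhp2 at 1.10.

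Of the 40S assembly factors, 15 of 37 were higher and 11 lower (median 0.04), shares near the 37.5% and 38.0% of all tested genes. Of the 60S assembly factors, 30 of 47 were higher and 9 lower (median 0.29). Utp20, a very large scaffold of the early 40S precursor, was 2.12-fold lower, and Emg1, an 18S rRNA methyltransferase, was 1.55-fold higher. Gnl3l, a nucleolar GTPase, was 2.48-fold lower, whereas Rsl24d1, the placeholder for Rpl24 in 60S precursors, was 1.89-fold higher. Of 6 tested chaperones dedicated to single ribosomal proteins, 3 were higher and 1 lower (median 0.19). Aamp and Grwd1, whose yeast relatives guard Rpl10 and Rpl3, were at 0.88 and 0.45. With the offset for principal length and GC, Polr1d, Emg1 and Grwd1 lost their calls, at 0.085, 0.01 and -0.05.

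Of 13 regulators of TOP mRNAs and of Rps6 phosphorylation, 4 were higher and 7 lower (median -0.33), beside the same shares of all tested genes. Eif4ebp1, the mTORC1-controlled inhibitor of cap-dependent translation, had 52.9, 51.6 and 47.3 CPM with LPS alone and 227, 176 and 148 CPM in co-culture, a log2 fold change of 1.86 ± 0.14 (SE; edgeR adjusted p = 2.19e-06). Larp4, a poly(A)-binding relative of LARP1, was 2.95-fold lower. Of 12 genes for rescue and quality control of stalled ribosomes, 5 were higher and 5 lower (median 0.00), again near the 37.5% and 38.0% of all tested genes. Ltn1, the ligase that tags peptides on stalled 60S subunits, was 2.08-fold lower and Ascc3, a helicase that splits collided ribosomes, 2.71-fold lower. The principal transcripts of Utp20, Gnl3l, Larp4, Ltn1 and Ascc3 have 8821, 4865, 6530, 7743 and 7760 bases, and with the offset for principal length and GC their log2 fold changes were -0.38, -0.76, -0.62, -0.19 and -0.56, all still past the threshold. With that offset, beside 33.5% of tested genes higher and 35.2% lower, 11 of the 15 TOP mRNAs were higher and 1 lower, 6 and 2 of the 14 polymerase I genes, 7 and 2 of the 11 snoRNP proteins and 18 and 9 of the 37 40S assembly factors. The counts were 27 and 10 of the 47 60S assembly factors, 2 and 2 of the 6 chaperones, 6 and 3 of the 13 regulators and 8 and 4 of the 12 rescue genes.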

How the data were processed

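Poly(A)-selected RNA of 6 cell cultures was sequenced after random priming, per the labels' protocols; no strand-marking step is named. In 1 deposited table, the authors give a raw read count and an FPKM value for each gene and library. HISAT2 2.0.5 and build mm10 are named in the submitters' processing notes; how reads were counted, on which annotation and with what strand rule is not stated there. Gene length, also in the deposited table, is the authors' value. Of the rows, 21958 held values and 1 was empty and not analysed here.

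Tests used edgeR 4.0.16 (R 4.3.3) on the deposited counts, quasi-likelihood with robust estimation, TMM scaling, the default expression filter and group as the only term, called at an adjusted p of 0.05. The fit kept 11103 genes, 81 of them members, and the biological coefficient of variation was 7.05%. Depth was 17716460 to 22539884 counts per library; 3 counts, taken as the floor, are 0.133 to 0.169 CPM, and floors cover counting error only. Replicates differed by more than sampling noise, with a chi-square per degree of freedom of 1.71 to 2.11 between LPS libraries and 5.16 to 26.8 between co-culture libraries. Nothing beyond the titles says that they were separate cultures, so p-values measure the spread between these libraries. The script was tested on simulated counts.

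Positions, principal transcripts (ranked by APPRIS, support level and number), exon overlap and shared 50-base strings came from GENCODE M21 (GRCm38), matched by identifier for all 83 members. Offsets for length and GC used natural splines with 5 degrees of freedom per library. Alternatives were RLE factors, library totals, TMM without the members, other filters, DESeq2 1.42.0, limma 3.58.1 on log2(FPKM + 1) or log2(FPKM + 0.1) at a mean FPKM of at least 1, a replicate block and leaving out each library.

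The members and lists were chosen with earlier results of these data known. Named genes were the detected paralogs with their partners, the 3 largest and 3 smallest changes and the 2 highest mean FPKM values in each subunit, 15 genes with known roles, and the members of each related list with the smallest p, of which 2 are printed. Other genes, such as the low-count members, further members that lost a call, Rps3a1 and the rows for copies of ribosomal protein genes, were named after their values were seen. A gene of the lists is not reported here.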

Additional observations from a re-analysis of the deposited data

How the results depend on the processing

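The 30 40S genes were called higher in every setting without an offset, and of the 46 60S genes 45 or 46 were (stricter filters leave Rpl24 out). Leaving out 1 library at a time gave medians of 1.03 to 1.18 for 40S, 0.97 to 1.17 for 60S and 0.63 to 0.67 for paralogs. LPS and co-culture replicates share numbers, but same-numbered libraries did not deviate together (correlations -0.04, -0.02 and 0.04), and a replicate block gave 4070 genes higher and 4147 lower and changed no member's call. On limma's log2(FPKM + 1) scale, which understates low genes and was used without TMM scaling, the 60S median was 0.86. The paralog median was 0.48 there and 0.48 with log2(FPKM + 0.1), with 2 paralogs called in both. Both fits left out Rpl3l and Rpl36al, whose mean FPKM is under 1, and in both Rpl7l1 lost its call. The paralog median was 0.48 with library totals and 0.54 with at least 10 counts in every library.

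Offsets moved the values most. In the order table length and GC, the same fitted without the members, length only, the same as the first with the replicate block, and principal length and GC, the 40S medians were 0.55, 0.57, 0.50, 0.55 and 0.26. The 60S medians were 0.60, 0.61, 0.59, 0.60 and 0.34, with 3, 3, 1, 3 and 1 genes lower, and the paralog medians were 0.12, 0.12, 0.12, 0.12 and 0.22. Under principal length 2 40S genes were lower, and under length only 1 paralog was. In the same order Rpl23a was at -0.40, -0.39, -0.41, -0.38 and -0.36, and Rpl36al at -0.23, -0.22, -0.25, -0.23 and -0.49. Under the offset on table length and GC, without the members and with the block, Rps10 was at -0.11 in each, Rps15 at -0.068, -0.078 and -0.068, Rplp1 at -0.25, -0.27 and -0.25, Rpl38 at -0.004, -0.016 and -0.005, Rpl36 at -0.36, -0.38 and -0.36, and Grwd1 at -0.16, -0.15 and -0.15. Under principal length, Rps10 was at -0.49, Rps18 at -0.42, Rps12 at -0.059, Rps28 at -0.11, Rpl35a at -0.10, Rpl7a at -0.08, Rpl27 at -0.013, Rps27l at -0.002 and Grwd1 at -0.053. Under length only, Rps27l was at -0.24 and mt-Nd6 at -0.12. The causes of these moves were not tested. Genes under 1 CPM are limited by depth.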

Other observations

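Other rows named after ribosomal protein genes but outside the rule also held counts, and are given as values only. Rps27rt, a copy of Rps27, had 9.01 ± 0.25 CPM (SD, n = 3) with LPS alone and 21.6 ± 7.0 CPM in co-culture, a log2 fold change of 1.26 (edgeR adjusted p = 2.83e-04). Rpl9-ps6 had 56.4 ± 2.7 CPM and then 103 ± 18.5 CPM, with a log2 fold change of 0.86 (edgeR adjusted p = 6.81e-05). Rpl36a-ps1 had 1.95 ± 0.20 CPM and then 3.99 ± 0.78 CPM, with a log2 fold change of 1.03 (edgeR adjusted p = 7.21e-04), and Rpl10-ps3 had 1.20 ± 0.52 CPM and then 2.29 ± 0.57 CPM, with 0.95 (edgeR adjusted p = 0.0181). Rps23rg1, Rps18-ps6, Rpl36-ps4 and Rplp2-ps1 were at 0 counts in all 6 libraries. The rows were chosen after their values were seen, and reads shared with the parent genes cannot be told apart from their own.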
